A study of Arabidopsis thaliana with 20 samples.

Results

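Leaves infiltrated with PEI-SWNTs were compared with leaves infiltrated with water, both collected 48 h after infiltration. PEI-SWNTs are single-walled carbon nanotubes (SWNTs) whose surface carries polyethyleneimine (PEI), a positively charged polymer that binds DNA, and they were loaded here with plasmid DNA. The comparison used 10 of the 20 samples of the series, chosen by their labels, with 5 PEI-SWNTs samples and 5 water samples. Of 37336 annotated genes, the 16288 that averaged at least 1 RPKM (reads per kilobase of gene per 1e6 counts) over the 20 samples were tested. All samples were leaves of greenhouse-grown wild-type Columbia-0 Arabidopsis thaliana, and each replicate pooled leaves of several plants. The PEI-SWNTs leaves received 50 ng/µL PEI-SWNTs with plasmid DNA by needleless syringe, and the water leaves received water in the same way. The other 2 groups were leaves infiltrated with 50 ng/µL unmodified SWNTs carrying single-stranded RNA, and non-infiltrated leaves, with 5 samples each. Water brought neither nanotube, polymer nor nucleic acid, so the effects of these 3 components cannot be told apart in this comparison. The SWNTs group is given beside a few results, but it differs from PEI-SWNTs in the nucleic acid as well as in the polymer. The nanotubes differ too. The paper names carboxylated SWNTs as the starting material of PEI-SWNTs, while it describes the SWNTs group as pristine.

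Plants sense microbes and damage with receptor kinases at the cell surface and with NLR receptors inside the cell. Both routes feed into salicylic acid, a hormone made through isochorismate, which acts through the co-activator NPR1 and TGA and WRKY transcription factors to switch on secreted pathogenesis-related (PR) proteins. Jasmonate, a lipid-derived hormone, acts through MYC factors and drives a different set of defences, among them glucosinolates and the myrosinases that activate them. The 2 hormones often oppose each other in leaves, and strong immune activation is commonly accompanied by lower expression of growth and photosynthesis genes.

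The 5 PEI-SWNTs libraries held 13387714 to 21943422 counts and the 5 water libraries 18191528 to 27143499. Leaf identity was clear in all 10. The summed level of 5 mesophyll markers, among them LHCB1.3 and RBCS1A, was 42615 to 52978 counts per 1e6 counts (CPM) in PEI-SWNTs leaves and 48465 to 61528 CPM in water leaves. The libraries PEI-SWNTs 5 and water 3 stood apart in jasmonate-related genes, and values without them are given beside results that they move. In whole leaves, fewer cells of a type and less RNA per cell cannot be told apart. A gene was called higher or lower when its adjusted p was below 0.05 and its change at least 2-fold, and "rose" and "fell" are used below for such genes.

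In PEI-SWNTs leaves 1565 of the genes tested changed relative to water leaves (9.61%), of which 999 rose (6.13%) and 566 fell (3.47%). The rises were larger. The median log2 fold change was 1.55 among the genes that rose and -1.29 among those that fell, 307 rose and 75 fell at least 4-fold, and 44 rose and 0 fell at least 16-fold. In 907 of the genes that rose and 466 of those that fell, no PEI-SWNTs sample overlapped a water sample, against 35.0% of all genes tested. The genes that rose took 6.68% to 8.00% of all counts in PEI-SWNTs leaves and 2.21% to 2.86% in water leaves, and the genes that fell took 1.20% to 1.58% in PEI-SWNTs leaves and 3.16% to 3.61% in water leaves. Without a minimum on the fold change, 8458 genes (51.9%) differed, 4505 (27.7%) higher and 3953 (24.3%) lower. SAND, a gene often used as a reference in expression assays, was at 33.3 to 39.6 CPM in PEI-SWNTs leaves and 35.4 to 38.8 CPM in water leaves, a log2 fold change of -0.05 ± 0.05 (SE).

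**Figure D1:**
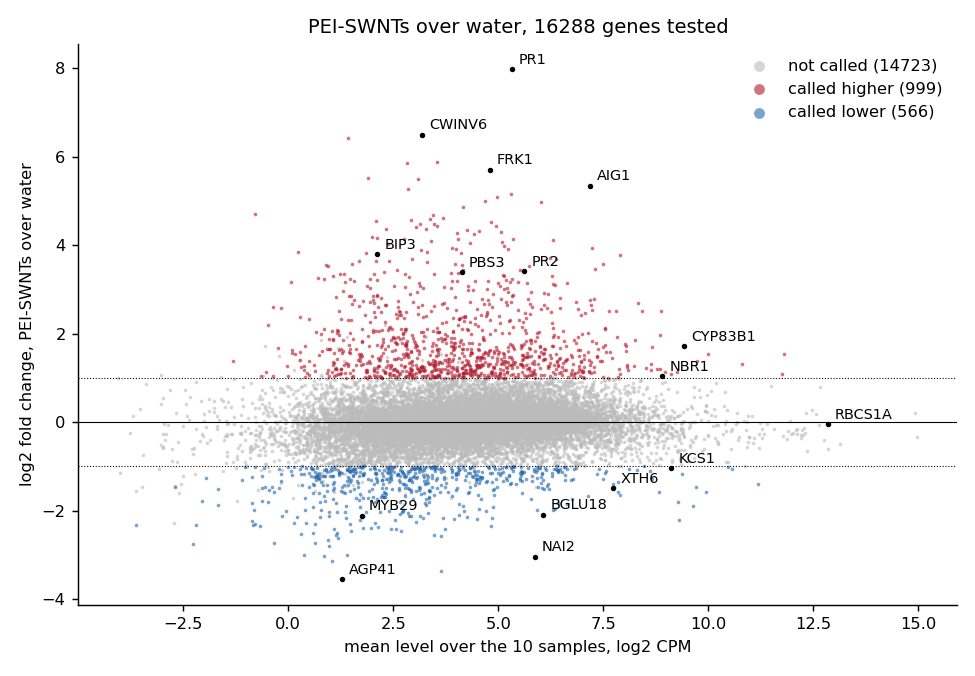
Log2 fold change of PEI-SWNTs over water (vertical) against the mean level over the 10 samples in log2 CPM (horizontal) for the 16288 genes tested. Red points are the 999 genes called higher and blue points the 566 called lower, black points are the labelled genes, and dotted lines mark a 2-fold change. The rises reach a log2 fold change of 7.98 (PR1), and the largest fall is -3.55 (AGP41).

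Genes of the route to salicylic acid rose together. All 8 tested members of the list of salicylic acid synthesis and its EDS1 regulators rose, against 6.13% of all genes. Their median log2 fold change was 2.04, where the median of all genes tested was -0.00044. ICS1, the isochorismate synthase that opens the pathway, was at 54.2, 54.5, 50.3, 45.8 and 54.5 CPM in PEI-SWNTs leaves, against 15.1, 13.6, 21.7, 16.8 and 20.8 CPM in water leaves. The groups did not overlap, and the log2 fold change was 1.56 ± 0.17 (SE, adjusted p = 3.1e-07). EDS5, the transporter that moves isochorismate out of the plastid, was at 23.9 to 32.1 CPM in PEI-SWNTs leaves against 6.05 to 9.36 CPM in water leaves (log2 fold change 1.85). PBS3, the enzyme that joins isochorismate to glutamate in the last dedicated step, was at 36.1, 34.9, 29.2, 27.6 and 31.7 CPM in PEI-SWNTs leaves, against 3.15, 2.84, 3.02, 2.99 and 3.17 CPM in water leaves. Its rise was 10.5-fold (log2 fold change 3.39 ± 0.29, SE), the largest of the list. Upstream, the transcription factors CBP60G and SARD1, which switch on ICS1, averaged 178 and 96.5 CPM in PEI-SWNTs leaves against 20.3 and 15.8 CPM in water leaves. EDS1, PAD4 and SAG101, lipase-like proteins that relay receptor signals, rose with log2 fold changes of 2.12, 1.97 and 1.42. All 8 calls held when any one of the 10 samples was left out.

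Genes that turn salicylic acid over also rose. DLO1 and DMR6 hydroxylate salicylic acid. DLO1 was at 7.01 to 14.5 CPM in PEI-SWNTs leaves against 0.322 to 0.746 CPM in water leaves (log2 fold change 4.03 ± 0.38, SE), and DMR6 averaged 301 CPM in PEI-SWNTs leaves against 70.2 CPM in water leaves (2.1). UGT74F2, a salicylate glucosyltransferase, was at a log2 fold change of 0.74. ALD1 and FMO1, which make the systemic signal N-hydroxypipecolate, were below the level needed for testing. FMO1 was at 0.964 to 2.02 CPM in PEI-SWNTs leaves and 0.233 to 0.697 CPM in water leaves, so the groups did not overlap, while ALD1 was at most 0.375 CPM in PEI-SWNTs leaves and 0.483 CPM in water leaves.

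Signalling below salicylic acid moved less. Of 13 tested NPR, NIMIN, TGA and WRKY genes, 6 rose and 0 fell, with a median of 0.66, and 11 were higher at adjusted p under 0.05, against 27.7% of all genes. NPR1 was at 61.1 to 74.7 CPM in PEI-SWNTs leaves and 29.3 to 35.8 CPM in water leaves, which did not overlap. Its log2 fold change of 1.01 ± 0.08 (SE) lay at the 2-fold limit, and it fell under that limit, to between 0.94 and 0.99, in 6 of the 10 fits with 1 sample left out. The paralogs NPR3 and NPR4 rose with log2 fold changes of 1.24 and 1.09, and WRKY70 and WRKY54, which act downstream of NPR1, with 1.5 and 1.12. NIMIN2, an early salicylate-induced NPR1 interactor, was at 9.42 to 15.3 CPM in PEI-SWNTs leaves against 3.02 to 4.64 CPM in water leaves (log2 fold change 1.70). The 6 TGA factors of the list were between -0.03 and 0.66, and none was called. NIMIN1 was too low to test, at 0.589 to 1.73 CPM in PEI-SWNTs leaves and 0.049 to 0.29 CPM in water leaves.

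The secreted effectors had the highest median of any gene list. Of 10 listed PR proteins and defensins 6 passed the filter. All 6 rose, against 6.13% of all genes, with a median log2 fold change of 2.99. The filter averaged over all 20 samples, PEI-SWNTs included. PR1, at most 0.912 CPM in every sample of the other groups, was therefore testable only through the PEI-SWNTs group. PR1, the classical marker of salicylic acid responses, was at 68.7, 83.7, 67.0, 115 and 64.9 CPM in PEI-SWNTs leaves, against 0.912, 0.0537, 0.174, 0 and 0.288 CPM in water leaves. It was close to silent in all 5 water samples, with 0 to 22 counts a library, and had 894 to 2140 counts in PEI-SWNTs leaves. The log2 fold change was 7.98 ± 0.41 (SE, adjusted p = 2.7e-11), the largest among all genes tested, and it reached 9.08 when water 1, the highest water sample, was left out. PR2, a beta-1,3-glucanase, was at 87.4, 108, 91.9, 68.5 and 93.0 CPM in PEI-SWNTs leaves, against 8.50, 6.65, 11.3, 4.90 and 10.8 CPM in water leaves (3.41). PR5, a thaumatin-like protein, was at 37.3 to 55.9 CPM in PEI-SWNTs leaves against 3.92 to 9.22 CPM in water leaves (2.77), and BG3, PDF1.4 and PR4 rose with log2 fold changes of 3.22, 2.49 and 1.43.

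Beside unmodified SWNTs, the log2 differences ranged widely between members of this route. PR1 was at 0.0562 to 0.393 CPM in SWNTs leaves, and the PEI-SWNTs level was higher by 8.47 ± 0.43 (log2, SE, adjusted p = 1.1e-10). EDS5 was at 6.27 to 10.01 CPM in SWNTs leaves, and PEI-SWNTs leaves were higher by 1.81 (adjusted p = 3.8e-07). PR2 and PR5 were also higher in SWNTs leaves than in water leaves. PR2 was at 28.2 to 43.4 CPM in SWNTs leaves, with a log2 fold change over water of 2.11, and PEI-SWNTs leaves were higher than SWNTs leaves by 1.3 (adjusted p = 0.00057). For PR5 the values were 1.37 for SWNTs over water and 1.40 for PEI-SWNTs over SWNTs (adjusted p = 0.00017). Both differences use the same SWNTs samples.

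**Figure D2:**
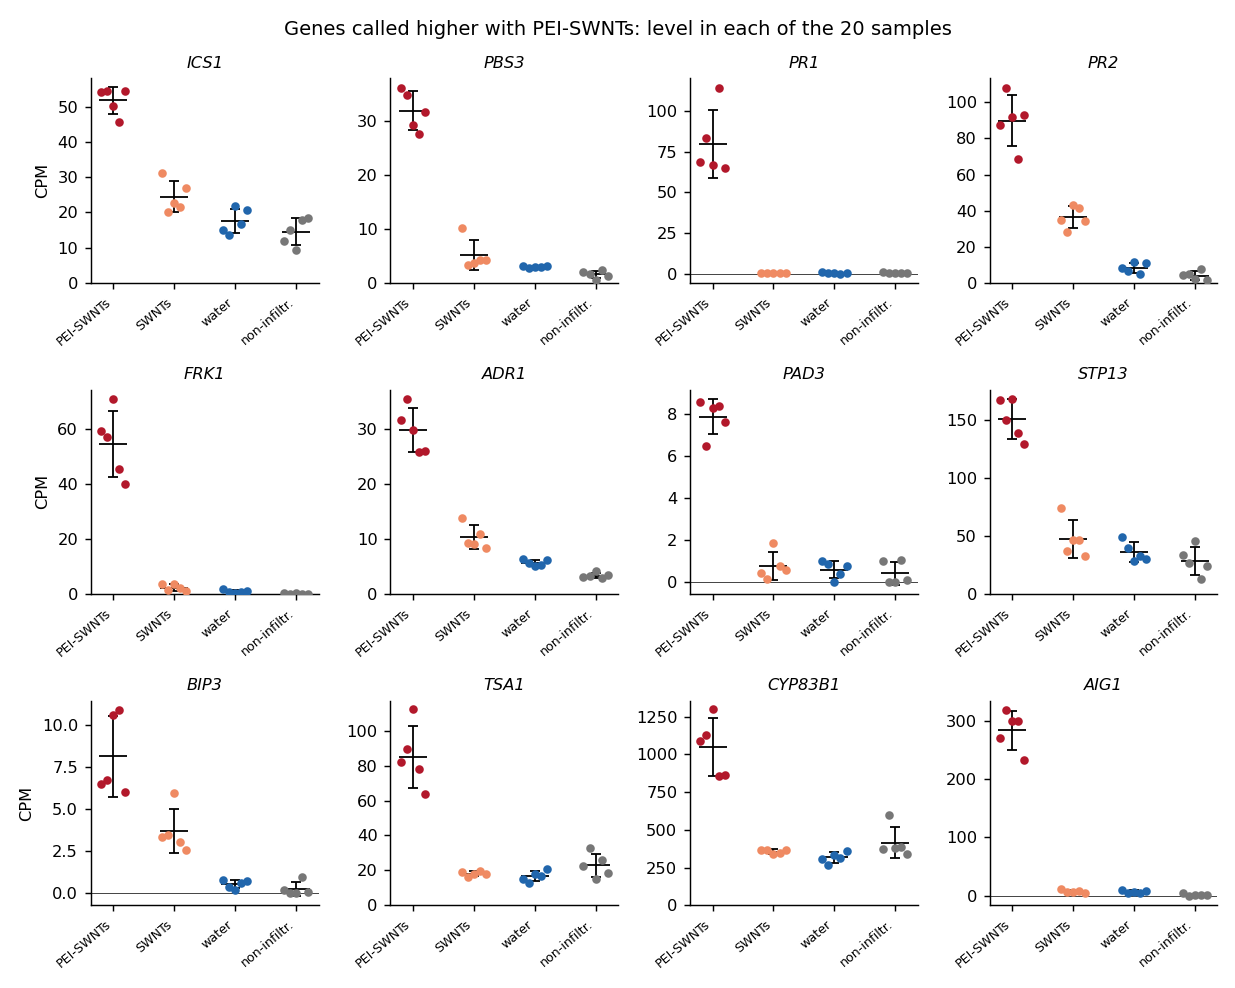
Level in CPM (vertical, linear axis) of 12 genes called higher with PEI-SWNTs, in each sample of the PEI-SWNTs, SWNTs, water and non-infiltrated groups. Points are samples (n = 5 a group), and bars give the mean ± SD. In every panel all 5 PEI-SWNTs points lie above all 5 water points, and PR1 and AIG1 are near 0 in the other 3 groups.

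Most cell-surface receptors of the list rose. Of 14 tested pattern receptors, co-receptors and their partners, 9 rose, against 6.13% of all genes, and 0 fell. The median was 1.35, and the 9 calls held with any one sample left out. FRK1, a receptor-like kinase named for its induction by bacterial flagellin, was at 59.5, 57.2, 71.0, 45.6 and 40.2 CPM in PEI-SWNTs leaves, against 1.74, 0.912, 0.349, 0.882 and 1.12 CPM in water leaves. Its log2 fold change was 5.71 ± 0.35 (SE, adjusted p = 2.5e-10), and it exceeded SWNTs leaves, at 0.969 to 3.68 CPM, by 4.53 (adjusted p = 6.0e-09). RLP23, the receptor for the nlp20 peptide, averaged 83.9 CPM in PEI-SWNTs leaves against 7.73 CPM in water leaves, and its partner kinase SOBIR1 475 CPM in PEI-SWNTs leaves against 131 CPM in water leaves. EFR, which binds bacterial elongation factor Tu, and the cytoplasmic kinase BIK1 rose with log2 fold changes of 1.64 and 1.32. The wall-associated kinases WAK1 and WAK2 rose with 1.97 and 1.38. FLS2, the flagellin receptor, BAK1, its co-receptor, and CERK1, the chitin receptor kinase, had adjusted p under 0.05 but were below 2-fold, with log2 fold changes of 0.37, 0.63 and 0.48.

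Among intracellular receptors the helpers led. ADR1, ADR1-L1 and ADR1-L2, helper NLRs that work with EDS1, rose with log2 fold changes of 2.37, 1.59 and 1.44. ADR1 was at 31.7, 35.6, 29.8, 25.9 and 26.1 CPM in PEI-SWNTs leaves, against 6.39, 5.69, 5.12, 5.34 and 6.19 CPM in water leaves, with an adjusted p of 8.1e-11. In all, 6 of 12 tested NLRs and NLR partners rose, ZAR1 and RPM1 among them, against 6.13% of all genes, and 0 fell (median 0.99). RRS1 and RPS6 were at 0.09 and 0.10. The NLR gene RPS2 was not tested. It held 26 counts in all 20 libraries together, and its exons lie entirely under a gene on the other strand.

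The kinase cascade between receptors and nucleus moved by less than 2-fold apart from 1 gene. Of 11 tested genes of the immune MAP kinase cascades, 1 rose, against 6.13% of all genes, 8 were higher at adjusted p under 0.05, against 27.7%, and the median was 0.42. The rises numbered 1 to 2 with 1 sample left out. That gene, MPK11, was at 17.2, 28.8, 13.1, 8.19 and 27.7 CPM in PEI-SWNTs leaves, against 2.94, 3.59, 2.56, 10.6 and 2.16 CPM in water leaves. Water 4 lay within the PEI-SWNTs range, and the log2 fold change of 2.13 became 2.76 without it. MPK3 and MPK6, the kinases at the end of the main cascade, were at 0.42 and 0.27. RBOHD, the oxidase of the immune oxidative burst, was at 87.1 to 212 CPM in PEI-SWNTs leaves and 50.5 to 121 CPM in water leaves, which overlapped, with a log2 fold change of 0.76 (adjusted p = 0.018).

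Part of the genes of cell death, senescence and autophagy rose. Of 9 cell death and oxidative burst genes 3 rose, against 6.13% of all genes, and 6 were higher at adjusted p under 0.05, against 27.7%. MC2, a metacaspase, was at 19.6 to 33.2 CPM in PEI-SWNTs leaves against 5.00 to 9.16 CPM in water leaves (log2 fold change 1.82), GAMMAVPE, a vacuolar protease, averaged 425 CPM in PEI-SWNTs leaves against 177 CPM in water leaves, and BI-1, a suppressor of cell death in the endoplasmic reticulum, 122 CPM in PEI-SWNTs leaves against 47.1 CPM in water leaves. Of 11 senescence and chlorophyll breakdown genes 4 rose (SAG13, SAG21, WRKY6 and YLS9) and 0 fell. At adjusted p under 0.05, 7 of the 11 were higher, against the same 27.7%. YLS9, also known as NHL10 and induced by pathogens, was at 17.7, 17.7, 16.0, 15.8 and 16.1 CPM in PEI-SWNTs leaves and 0.456, 0.429, 0.291, 0.343 and 0.288 CPM in water leaves (log2 fold change 5.50 ± 0.31, SE). SAG13 was at 18.4 to 25.8 CPM in PEI-SWNTs leaves against 1.76 to 12.1 CPM in water leaves, and its log2 fold change of 2.00 became 2.59 without water 1. SAG12, the marker of developmental leaf senescence, held 0 counts in all 10 libraries, and NAC092, a regulator of age-dependent senescence, was at 9.79 to 19.8 CPM in PEI-SWNTs leaves and 7.16 to 21.2 CPM in water leaves (0.13, adjusted p = 0.76). The chlorophyll breakdown enzymes NYE1, NYC1, PPH and PAO were between 0.24 and 0.56 and none was called. In autophagy 3 of 10 genes rose and 9 of 10 were higher at adjusted p under 0.05, against 27.7% of all genes. ATG8E, which coats autophagosomes, was at 39.6 to 54.8 CPM in PEI-SWNTs leaves against 11.2 to 23.1 CPM in water leaves (log2 fold change 1.44), and the cargo receptor NBR1 was at 500 to 722 CPM in PEI-SWNTs leaves against 291 to 343 CPM in water leaves (1.04). NBR1 fell below the 2-fold limit in 4 of the 10 fits with 1 sample left out. ATG8E was at 29.0 to 43.4 CPM in SWNTs leaves, and the difference between PEI-SWNTs and SWNTs was 0.34 ± 0.17 (log2, SE, adjusted p = 0.11).

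Protein folding in the endoplasmic reticulum showed rises that the heat shock list did not. All 16 tested chaperones, folding enzymes and their regulator BZIP60 were higher at adjusted p under 0.05, against 27.7% of all genes, and 7 of them rose at least 2-fold (median 0.95). BIP3, the stress-inducible BiP chaperone, was at 6.49, 6.77, 10.6, 10.9 and 6.02 CPM in PEI-SWNTs leaves, against 0.788, 0.376, 0.233, 0.637 and 0.756 CPM in water leaves (log2 fold change 3.80 ± 0.50, SE, adjusted p = 4e-06). It was at 2.61 to 5.97 CPM in SWNTs leaves, a log2 fold change over water of 2.66, and PEI-SWNTs leaves were higher than these by 1.14 (adjusted p = 0.037). CRT3, a calreticulin needed to fold the receptor EFR, averaged 362 CPM in PEI-SWNTs leaves against 95.6 CPM in water leaves (1.92). BZIP60, the transcription factor of the unfolded protein response, was at 86.8 to 136 CPM in PEI-SWNTs leaves against 41.7 to 78.1 CPM in water leaves, and its log2 fold change of 0.99 lay just under the limit. Of 5 tested heat shock genes 0 were called, against 9.61% of all genes, and 0 had an adjusted p under 0.05, against 51.9%. HSP101 was at 17.0 to 18.2 CPM in PEI-SWNTs leaves and 16.7 to 24.9 CPM in water leaves, and HSFA2 was at a log2 fold change of -0.32 (adjusted p = 0.45).

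Some genes of tryptophan and camalexin synthesis rose. Of 10 tryptophan synthesis genes 4 rose, against 6.13% of all genes, and 0 fell (median 0.82). PAI1 and PAI3 were lower at adjusted p under 0.05 with log2 fold changes of -0.62 and -0.74. ASA1, the committed anthranilate synthase, was at 60.7 to 77.2 CPM in PEI-SWNTs leaves against 21.6 to 45.9 CPM in water leaves (1.05, below 2-fold in 4 of the 10 fits with 1 sample left out). TSA1, the alpha subunit of tryptophan synthase, was at 82.4, 89.3, 112, 77.9 and 63.5 CPM in PEI-SWNTs leaves, against 15.1, 12.9, 17.8, 16.6 and 20.5 CPM in water leaves (2.35 ± 0.18, SE). It was at 16.3 to 19.4 CPM in SWNTs leaves, lower than in PEI-SWNTs leaves by a log2 difference of 2.22 (adjusted p = 1.9e-08). PAD3, the last enzyme of the phytoalexin camalexin, was at 6.48 to 8.57 CPM in PEI-SWNTs leaves and 0 to 0.995 CPM in water leaves (3.65 ± 0.65, SE), and GSTF6 averaged 291 CPM in PEI-SWNTs leaves against 26.4 CPM in water leaves. The other camalexin genes were not called, with CYP71A13 at 0.77 (adjusted p = 0.29) and the regulator WRKY33 at 0.20 (adjusted p = 0.79).

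Glucosinolate genes are given by the amino acid of origin of their branch. In the tryptophan-derived indolic branch 5 of 11 genes rose and 2 fell, or 1 without water 3 (median 0.72). The shares over all genes were 6.13% and 3.47%. CYP83B1, the P450 enzyme that commits indole oximes to glucosinolates, was at 1089, 1130, 1305, 856 and 864 CPM in PEI-SWNTs leaves, against 309, 269, 335, 313 and 363 CPM in water leaves (log2 fold change 1.72 ± 0.14, SE, adjusted p = 7.7e-09). MYB51, an activator of the branch, was at 28.1 to 42.0 CPM in PEI-SWNTs leaves against 7.92 to 24.8 CPM in water leaves (1.28), while MYB34, a second activator, fell, at 9.84 CPM in PEI-SWNTs leaves against 29.7 CPM in water leaves (-1.57). SOT16 and GSTF9 rose with 1.26 and 1.32. IGMT5, a methyltransferase, fell with a log2 fold change of -2.14 (adjusted p = 0.03), a call lost in 5 of the 10 fits with 1 sample left out, where it was between -2.09 and -1.66. CYP81F2, which modifies indolic glucosinolates, was too low to test, at 1.32 to 2.02 CPM in PEI-SWNTs leaves and 0.18 to 0.686 CPM in water leaves.

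In the methionine-derived aliphatic branch 8 of 18 genes fell, 1 rose, and the median was -1.06, where 3.47% of all genes fell and 6.13% rose. MYB28, the main activator of the branch, was at 32.6, 35.5, 42.1, 46.9 and 36.2 CPM in PEI-SWNTs leaves, against 77.5, 87.5, 77.1, 97.2 and 70.7 CPM in water leaves. Its log2 fold change was -1.08 ± 0.12 (SE, adjusted p = 3.1e-07), with no overlap between groups. MYB29, the second activator, was at 0.595, 1.89, 1.05, 0.75 and 1.88 CPM in PEI-SWNTs leaves, against 4.73, 3.06, 11.2, 2.89 and 5.61 CPM in water leaves (-2.12 ± 0.39, SE). CYP83A1, the P450 enzyme of this branch, was at 6.05 to 18.9 CPM in PEI-SWNTs leaves and 24.1, 13.5, 67.4, 26.2 and 34.1 CPM in water leaves, with water 3 the highest. Its log2 fold change of -1.23 became -0.84 without water 3, below 2-fold. This library decided much of the count: without it 2 of the 18 genes fell and the list median was -0.72. Without PEI-SWNTs 5, 9 genes fell. MYB28 and MYB29 were lower in all of these fits. The member that rose, SOT17, a sulfotransferase, was at 8.25 to 19.5 CPM in PEI-SWNTs leaves against 4.89 to 8.74 CPM in water leaves (1.31), with PEI-SWNTs 4 inside the water range.

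Jasmonate genes were scattered, and samples within a group differed widely. None of 11 JAZ repressors, early jasmonate-induced genes, was called (median 0.30), where 9.61% of all genes were. With 1 sample left out 0 to 2 were called higher. JAZ10 was at 6.37, 12.8, 1.80, 2.84 and 24.1 CPM in PEI-SWNTs leaves, against 1.95, 1.23, 12.9, 4.90 and 9.82 CPM in water leaves. The highest values were PEI-SWNTs 5 and water 3. LOX2 and AOS, plastid enzymes of jasmonate synthesis, were at log2 fold changes of 0.10 (adjusted p = 0.83) and -0.58 (adjusted p = 0.067). AOC3, an allene oxide cyclase, rose, at 25.7, 39.2, 13.0, 6.42 and 51.4 CPM in PEI-SWNTs leaves, against 3.57, 5.42, 6.05, 12.1 and 3.06 CPM in water leaves (2.19 ± 0.63, SE, adjusted p = 0.0066). Its groups overlapped through PEI-SWNTs 4 and water 4. LOX3 also rose (1.19, adjusted p = 0.045). The calls in this list of 13 numbered 2 with all samples, where 6.13% of all genes rose, and 1 to 3 with 1 sample left out.

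Outputs of jasmonate showed the split between samples most sharply. VSP2, a storage protein and standard jasmonate marker, was at 1.37, 8.32, 1.87, 2.03 and 40.0 CPM in PEI-SWNTs leaves, against 2.03, 0.697, 119, 2.55 and 18.8 CPM in water leaves. The log2 fold change was -1.35 ± 1.07 (SE, adjusted p = 0.30) with all samples, -3.06 (adjusted p = 0.039) without PEI-SWNTs 5, and 0.78 without water 3, so its direction changed with 1 sample. CORI3, a jasmonate-induced aminotransferase-like protein, fell in every fit. It was at 7.56, 8.89, 10.9, 5.94 and 13.2 CPM in PEI-SWNTs leaves, against 37.0, 35.4, 77.4, 41.4 and 45.4 CPM in water leaves (-2.34 ± 0.37, SE, adjusted p = 2.8e-05), and was 58.5 to 163 CPM in SWNTs leaves. It was the 1 called gene of the 8 jasmonate outputs and MYC factors tested, where 3.47% of all genes fell, and 4 fell without PEI-SWNTs 5. MYC2, the master regulator, was not tested. It held 0 counts in all 20 libraries, and 98.5% of its exon length lies under a gene on the other strand.

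Genes of the ER body, a myrosinase store of this plant family, went both ways. NAI2, which builds the ER body and is among the study's marker genes, was at 15.1, 8.78, 12.7, 8.78 and 18.0 CPM in PEI-SWNTs leaves, against 86.2, 130, 92.6, 111 and 103 CPM in water leaves. The groups lay far apart (log2 fold change -3.04 ± 0.22, SE, adjusted p = 2.1e-09), and SWNTs leaves were at 63.7 to 80.4 CPM (PEI-SWNTs over SWNTs -2.51). Water infiltration itself left NAI2 at a log2 fold change of -0.02 over non-infiltrated leaves (adjusted p = 0.95). BGLU18, its beta-glucosidase, was at 12.2, 15.1, 16.1, 10.4 and 72.8 CPM in PEI-SWNTs leaves, against 42.1, 25.7, 294, 57.8 and 128 CPM in water leaves. PEI-SWNTs 5 lay inside the water range, and the log2 fold change of -2.10 was -3.05 without that sample and -1.35 (adjusted p = 0.047) without water 3. BGLU18 was also lower in water leaves than in non-infiltrated leaves, by -2.42 (log2, adjusted p = 0.0056). ESM1, which directs glucosinolate breakdown, averaged 1288 CPM in PEI-SWNTs leaves against 3382 CPM in water leaves (-1.39). The myrosinases TGG1 and TGG2 were at -0.20 and -0.49 and were not called, and MEB1, an ER body membrane protein, rose (1.32). Of this list of 10, 3 fell and 1 rose, against 3.47% and 6.13% of all genes, and 5 fell without PEI-SWNTs 5.

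**Figure D3:**
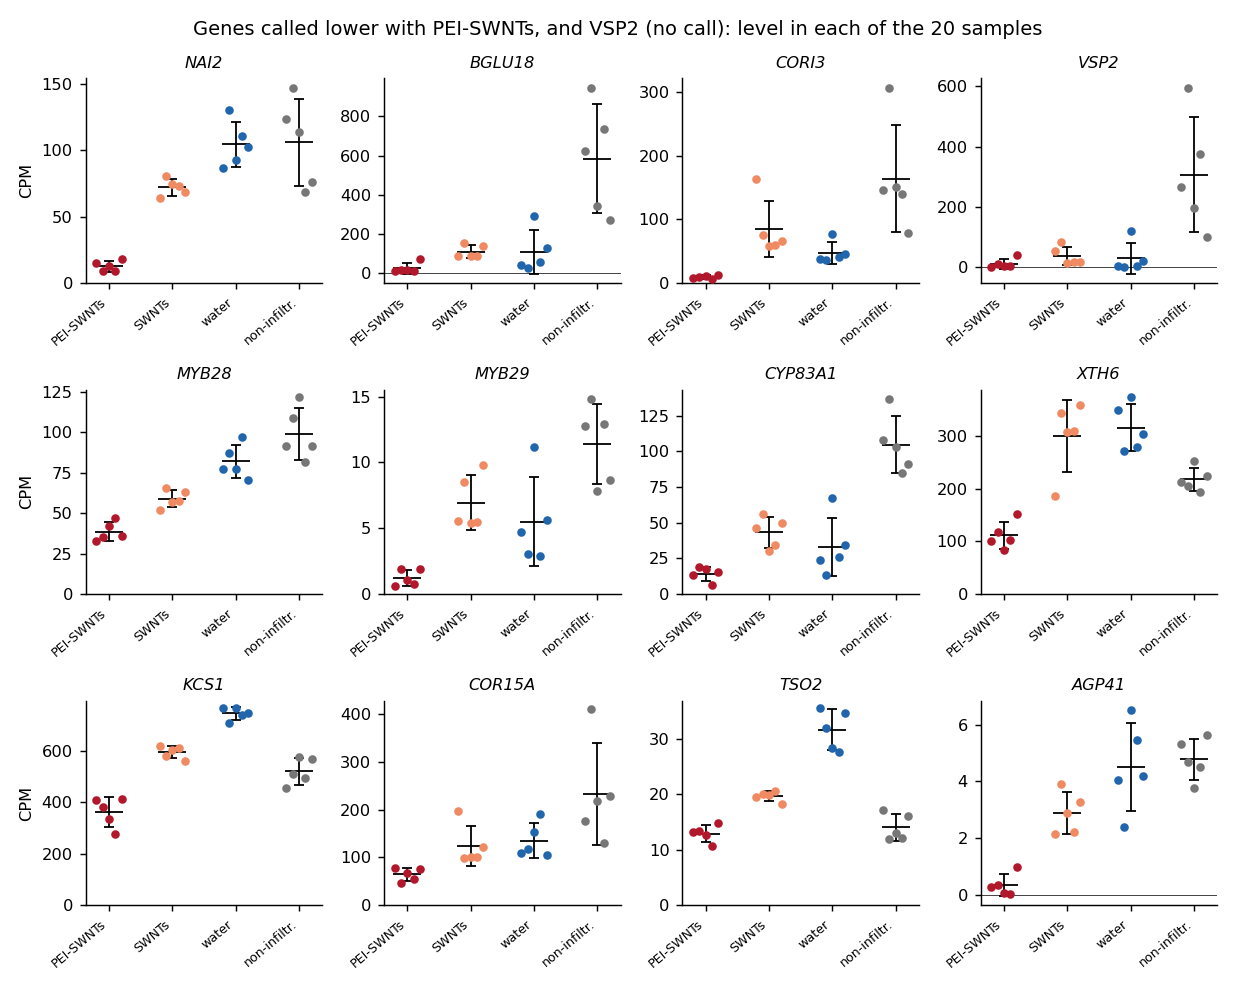
Level in CPM (vertical, linear axis) of 11 genes called lower with PEI-SWNTs and of VSP2, which was not called, in each sample of the PEI-SWNTs, SWNTs, water and non-infiltrated groups. Points are samples (n = 5 a group), and bars give the mean ± SD, some of which reach below 0. PEI-SWNTs 5 and water 3 are the highest points of their groups for BGLU18, CORI3 and VSP2, and PEI-SWNTs and water overlap for BGLU18, VSP2 and CYP83A1 but not for the other 9 genes.

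Sugar transport and trehalose phosphate genes rose. Of 14 tested genes 8 rose, against 6.13% of all genes, and 0 fell (median 1.10). CWINV6, a cell-wall fructan exohydrolase of the invertase family, was at 15.5, 22.9, 22.9, 16.2 and 11.8 CPM in PEI-SWNTs leaves, against 0.498, 0.0537, 0.0581, 0.098 and 0.18 CPM in water leaves (log2 fold change 6.50 ± 0.42, SE, adjusted p = 5.1e-10, and 7.32 without water 1). CWINV1, a cell-wall invertase, averaged 188 CPM in PEI-SWNTs leaves against 49.3 CPM in water leaves (1.93). STP13, a hexose importer, was at 129 to 169 CPM in PEI-SWNTs leaves against 28.1 to 49.2 CPM in water leaves (2.06), and its SWNTs level, 32.6 to 74.2 CPM, was lower than in PEI-SWNTs leaves (log2 difference 1.67, adjusted p = 3.8e-05). The class II trehalose phosphate synthase genes TPS8, TPS9, TPS10 and TPS11 rose with log2 fold changes between 1.13 and 1.99. ASN1 and DIN10, genes induced by darkness and low sugar, were at 0.33 and -0.13 and were not called, and DIN1 was lower, at -0.90 (adjusted p = 0.013).

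Some genes of mitochondrial stress and low oxygen rose, where 6.13% of all genes rose. Of 9 alternative respiration genes 2 rose: OM66, an outer membrane ATPase, at 32.0 to 144 CPM in PEI-SWNTs leaves against 5.87 to 36.6 CPM in water leaves (2.44 ± 0.55, SE, with 1 overlapping pair of samples, PEI-SWNTs 4 and water 4), and NDA2. AOX1A, the alternative oxidase, was at 0.53 (adjusted p = 0.0033). In this list 6 of 9 genes were higher at adjusted p under 0.05, against 27.7% of all genes, and the median was 0.53. Of 7 hypoxia genes 1 rose, LBD41, at 8.10 to 17.2 CPM in PEI-SWNTs leaves against 3.53 to 5.22 CPM in water leaves (1.64). Of the 7 hypoxia genes 3 were higher at adjusted p under 0.05, with a median of 0.14. ADH1 and PDC1, the fermentation enzymes, were too low to test. ADH1 was at 1.26 to 2.77 CPM in PEI-SWNTs leaves and 0.792 to 1.45 CPM in water leaves.

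Nuclear photosynthesis genes shifted downward by small amounts. Of 45 tested genes of the photosystems and electron transport, 0 fell at least 2-fold (1 without PEI-SWNTs 5), but 27 were lower at adjusted p under 0.05 and 3 higher, against 24.3% lower and 27.7% higher among all genes, and the median was -0.25. Examples were PSAN (-0.46) and PSAH2 (-0.40). The 1 gene that rose was LHCB4.3, a light-harvesting protein, at 2.56 to 3.64 CPM in PEI-SWNTs leaves against 0.864 to 1.67 CPM in water leaves (1.34). LHCB4.3 was also lower in water leaves than in non-infiltrated leaves, by -0.91 (log2, adjusted p = 0.0043). Its log2 fold change of PEI-SWNTs over non-infiltrated was 0.43 (adjusted p = 0.08). In the Calvin-Benson cycle and photorespiration 0 of 27 genes were called, against 9.61% of all genes (median -0.04). RBCS1A, the most abundant Rubisco small subunit, was at 6201 to 9240 CPM in PEI-SWNTs leaves and 6157 to 9496 CPM in water leaves, and RCA, the Rubisco activase, at 0.21 (adjusted p = 0.084). Members of the LHCB1 and RBCS families are near-identical, so reads may have been split between them. Plastid-encoded genes took 3.85% ± 0.45 of counts in PEI-SWNTs leaves and 4.80% ± 0.58 in water leaves (SD, n = 5 each), a difference of -0.95 points (two-sided exact permutation test, p = 0.048, 0.048 adjusted over 2 shares). The adjusted p became 0.095 when any one of 6 of the 10 samples was left out. Mitochondrial genes took 3.41% ± 0.19 in PEI-SWNTs leaves and 2.95% ± 0.12 in water leaves (SD, n = 5 each, p = 0.0079, the smallest that 5 against 5 samples allow in an exact permutation test, 0.016 adjusted), and these groups did not overlap. Most of that share came from ATMG01390, at 33252 CPM on average in PEI-SWNTs leaves and 28774 CPM in water leaves, which was not called (0.21, adjusted p = 0.08). The mitochondrial genes as a set did not shift. Of the 30 tested, 15 had a positive and 15 a negative log2 fold change, with a median of -0.00032. Libraries were selected for poly-A RNA, which most organelle transcripts lack, so these shares are of the RNA that passed the selection.

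Wax genes were mostly lower, by less than 2-fold. Of 11 wax synthesis and export genes 1 fell and 8 were lower at adjusted p under 0.05, against 24.3% of all genes, with a median of -0.65. Without PEI-SWNTs 5, 2 fell. KCS1, which elongates very long chain fatty acids, was at 407, 380, 334, 277 and 414 CPM in PEI-SWNTs leaves, against 766, 707, 767, 739 and 747 CPM in water leaves (-1.04 ± 0.09, SE, adjusted p = 1.8e-08), and -0.99 without PEI-SWNTs 4. CER1, of the alkane-forming complex, was at -0.09, with 21.3 to 67.5 CPM in PEI-SWNTs leaves and 32.5 to 79.1 CPM in water leaves. Wax is made in the epidermis. The summed level of 5 epidermis markers was 958 to 1192 CPM in PEI-SWNTs leaves and 1661 to 1835 CPM in water leaves. Of the 5 markers 0 were called, but ATML1, PDF2, FDH and LTP1 were each lower at adjusted p under 0.05. PDF1 went the other way, at 1.25 CPM on average in PEI-SWNTs leaves and 0.47 CPM in water leaves (1.49, adjusted p = 0.11). Guard cell markers summed to 37.6 to 41.7 CPM in PEI-SWNTs leaves and 43.9 to 53.0 CPM in water leaves. Of these, KAT1 was lower at adjusted p under 0.05 (-0.85), while FAMA, MYB60 and SLAC1 were between -0.13 and 0.04. Phloem markers summed to 346 to 374 CPM in PEI-SWNTs leaves and 338 to 400 CPM in water leaves. Among the 5 phloem markers SULTR2;1 fell (-1.01, adjusted p = 6.1e-05) and SUC2 was higher at adjusted p under 0.05 (0.51, adjusted p = 1.7e-05). The part of these markers in the wax result was not tested.

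Of 27 wall-loosening expansins and xyloglucan endotransglucosylases (XTH) 4 fell and 2 rose (median -0.13), where 3.47% of all genes fell and 6.13% rose. Without PEI-SWNTs 5, 6 fell, and without water 3, 3 fell. XTH6 was at 101, 118, 83.7, 103 and 153 CPM in PEI-SWNTs leaves, against 350, 272, 374, 279 and 305 CPM in water leaves (-1.50 ± 0.16, SE), and XTH7, XTH32 and EXPA3 fell with -1.47, -1.20 and -1.12. XTH30 was at 11.0 to 13.2 CPM in PEI-SWNTs leaves against 2.60 to 4.64 CPM in water leaves (1.78), and XTH25 rose with 1.3. EXPA8 and the touch gene XTH22 were at 0.20 and 0.55 and were not called. Of 11 plasma membrane aquaporins none was called and 6 were lower at adjusted p under 0.05, against 24.3% of all genes. Without PEI-SWNTs 5 or water 3, 1 fell. PIP2;1 was at 942 to 1073 CPM in PEI-SWNTs leaves and 1219 to 1582 CPM in water leaves, which did not overlap (-0.47 ± 0.08, SE).

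Abiotic stress, nutrient and clock lists each held at most 1 call in each direction with all samples, where 6.13% of all genes rose and 3.47% fell. At adjusted p under 0.05, 2 of 12 cold and dehydration genes were higher and 3 lower. Of 8 phosphate starvation genes 0 were higher and 4 lower, and of 7 iron genes 2 and 3. Of 12 clock genes 4 were higher and 4 lower. Among all genes 27.7% were higher and 24.3% lower. Among 12 cold and dehydration genes, of which 2 fell without PEI-SWNTs 5, COR15A fell, at 46.7 to 78.6 CPM in PEI-SWNTs leaves against 105 to 191 CPM in water leaves (-1.06, below 2-fold without PEI-SWNTs 2 or water 4), and RD29B rose, at 3.91 to 12.3 CPM in PEI-SWNTs leaves against 1.04 to 3.43 CPM in water leaves (2.08). RD29A, its neighbour on the chromosome, was at -0.84. SPX1, a phosphate sensor, fell, at 8.25 to 16.7 CPM in PEI-SWNTs leaves against 13.6 to 29.2 CPM in water leaves (-1.02), a call lost in 4 of the 10 fits with 1 sample left out. SWNTs leaves were at 5.12 to 9.14 CPM, and their difference from PEI-SWNTs leaves had an adjusted p of 0.08. NAS4, a nicotianamine synthase of iron transport, fell (-1.27), and FER1, the iron store ferritin, was at 0.73 (adjusted p = 0.0051). TOC1, the evening repressor of the clock, was at 29.8, 30.2, 27.3, 32.9 and 32.9 CPM in PEI-SWNTs leaves, against 10.2, 11.6, 10.5, 8.82 and 10.8 CPM in water leaves (1.56 ± 0.18, SE, adjusted p = 6.3e-07). It was the 1 gene called of 12 clock genes, and water leaves were below non-infiltrated leaves (log2 fold change of water over non-infiltrated -1.37, adjusted p = 2.3e-05), while PEI-SWNTs over non-infiltrated was 0.19 (adjusted p = 0.35). Its morning partner CCA1 was at 362 to 400 CPM in PEI-SWNTs leaves against 445 to 554 CPM in water leaves (-0.45, no overlap), and GI was at 0.28. The time of day of collection is not given in the sources used here.

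Genes that respond to foreign nucleic acid or to DNA damage were looked at because the PEI-SWNTs carried plasmid DNA. None of 8 RNA silencing genes was called, against 9.61% of all genes (median 0.04). AGO2, the antiviral Argonaute, was at 33.2 to 44.9 CPM in PEI-SWNTs leaves and 29.6 to 37.5 CPM in water leaves (0.28). Of 3 tested DNA damage genes TSO2, a ribonucleotide reductase subunit used in DNA synthesis, fell, at 10.7 to 14.8 CPM in PEI-SWNTs leaves against 27.6 to 35.6 CPM in water leaves (-1.29 ± 0.11, SE). TSO2 was 18.2 to 20.6 CPM in SWNTs leaves, between the other 2 groups and overlapping neither, and water leaves were above non-infiltrated leaves by a log2 difference of 1.17 (adjusted p = 9.9e-07). SMR7 was too low to test, at 0.0941 to 0.375 CPM in PEI-SWNTs leaves and 0.245 to 0.805 CPM in water leaves. None of 4 tested flavonoid genes was called, against 9.61% of all genes. CHS, their first enzyme, was at 0.574 to 1.84 CPM in PEI-SWNTs leaves and 0.441 to 2.33 CPM in water leaves, and DFR was at most 0.115 CPM in PEI-SWNTs leaves and 0.0581 CPM in water leaves.

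**Figure D4:**
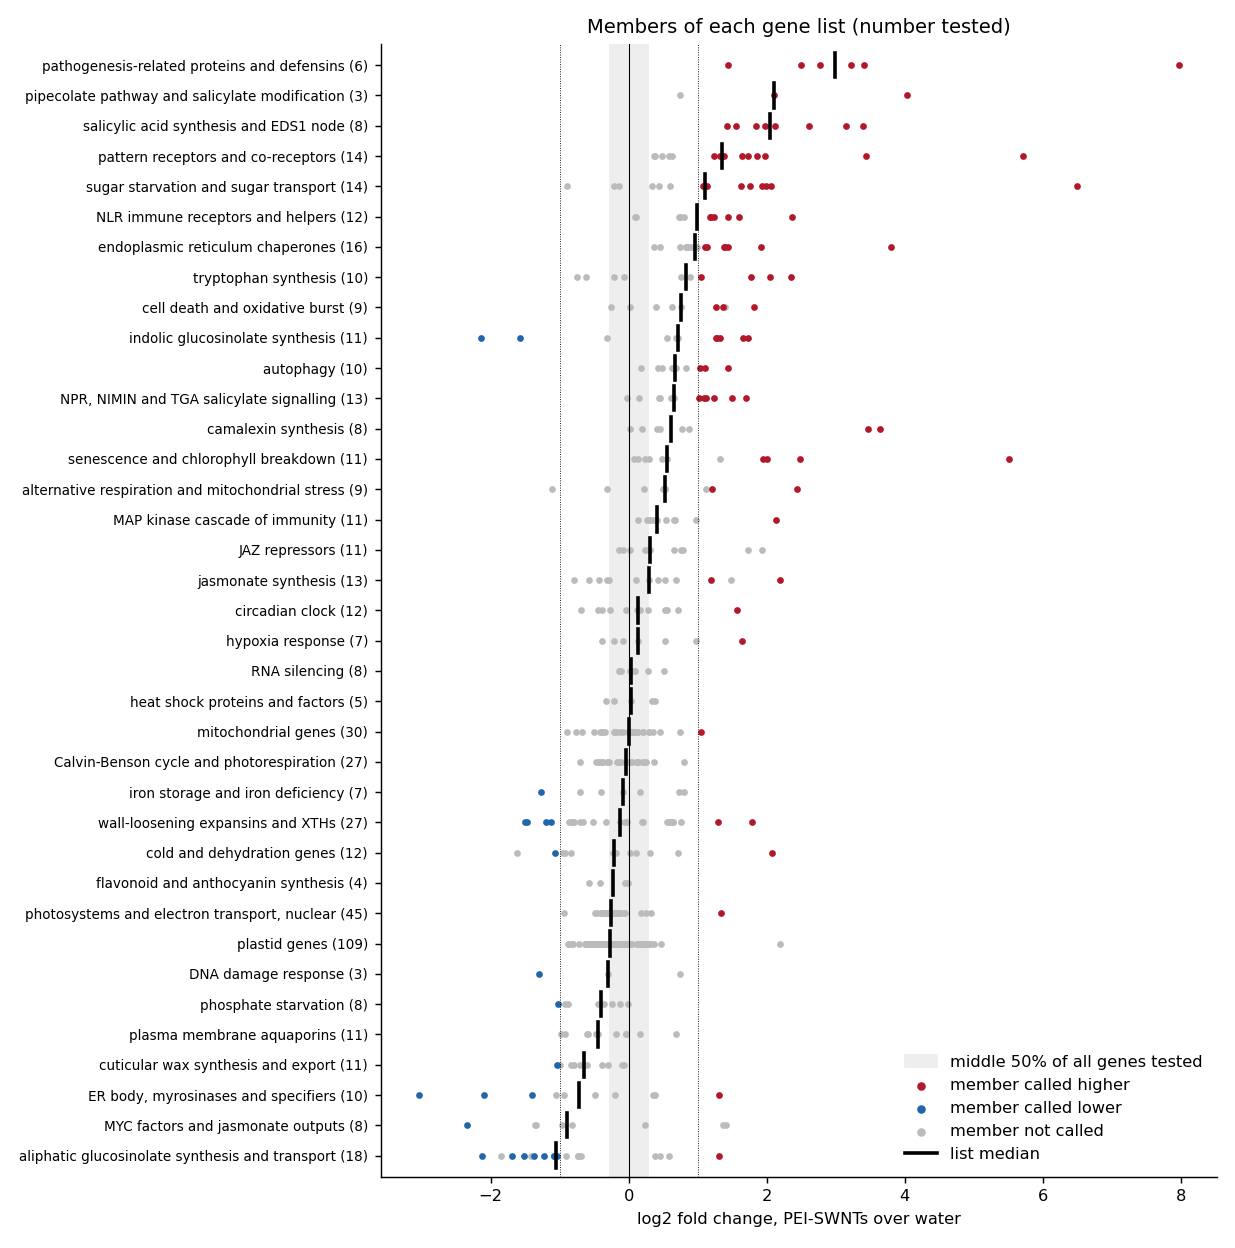
Log2 fold change of PEI-SWNTs over water (horizontal) of each tested member of the gene lists (rows, number tested in brackets), ordered by the list median (black bar). Red points were called higher, blue lower and grey neither, and the grey band holds the middle 50% of all 16288 genes. The lists of PR proteins, of pipecolate and salicylate modification and of salicylic acid synthesis stand highest, with medians of 2.99, 2.1 and 2.04, and aliphatic glucosinolates lowest, with -1.06. The 3 tested genes of the pipecolate and salicylate modification list are DLO1, DMR6 and UGT74F2, which act on salicylic acid. No pipecolate gene was tested.

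Further named genes were the 10 largest rises among genes whose groups did not overlap and whose lower group averaged at least 10 counts a library. AIG1, a GTPase named for its induction by avirulent bacteria, was at 270, 319, 300, 299 and 233 CPM in PEI-SWNTs leaves, against 10.2, 5.04, 6.28, 4.56 and 8.46 CPM in water leaves (5.35 ± 0.41, SE, adjusted p = 4.6e-09). In SWNTs leaves it was 5.22 to 11.0 CPM, so PEI-SWNTs leaves were higher by 5.30. WAK3, a wall-associated kinase in a cluster of close copies, was at 55.1 to 69.6 CPM in PEI-SWNTs leaves against 1.16 to 2.28 CPM in water leaves (5.09), and CML41, a calmodulin-like protein of the plasmodesmata, at 33.1 to 64.6 CPM in PEI-SWNTs leaves against 1.10 to 2.01 CPM in water leaves (5.01). GLR2.8, a glutamate receptor-like channel, was at 14.3 to 27.5 CPM in PEI-SWNTs leaves against 0.268 to 1.27 CPM in water leaves (4.58). CHX17, a cation exchanger, is not among these 10 and is given because the study chose it as a marker. It was at 8.85 to 19.4 CPM in PEI-SWNTs leaves against 0.161 to 0.746 CPM in water leaves (5.27). The study chose PR1, CHX17 and PAD3 for their rise and AGP41, AT3G54830 and NAI2 for their fall on these samples, so their values are no independent evidence of a direction. The rest of the 10 largest rises were AT4G00700 (annotated as a C2 calcium/lipid-binding protein, 5.17), AT3G28510 (a P-loop nucleoside triphosphatase, 4.97), AT5G25260 (a band 7 domain membrane protein, 4.86), AT3G13950 (an ankyrin protein, 4.68) and AT4G18253 (a receptor kinase-like protein, 4.62), with FRK1 already given. AT1G51920 was at 0.75 to 1.60 CPM in PEI-SWNTs leaves, with 0 to 2 counts a library in water leaves, and its log2 fold change of 4.71 became 5.31 without water 3.

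The largest falls were smaller than the largest rises. AGP41, an arabinogalactan protein of the cell surface, was at 0.298, 0.344, 0.075, 0.0535 and 0.988 CPM in PEI-SWNTs leaves, against 4.06, 2.41, 6.51, 5.44 and 4.17 CPM in water leaves. Its log2 fold change of -3.55 ± 0.41 (SE) became -4.51 without PEI-SWNTs 5, the highest of its group. AT5G05250 was at 1.61 to 3.37 CPM in PEI-SWNTs leaves against 11.4 to 42.1 CPM in water leaves (-3.37), and SWNTs leaves, at 3.14 to 7.37 CPM, differed from PEI-SWNTs leaves by -1.20 (adjusted p = 0.03). AT3G54830, an amino acid transporter family member, was at 0.214 to 0.595 CPM in PEI-SWNTs leaves against 1.87 to 4.80 CPM in water leaves (-3.02), and AT3G06145, annotated as a RING finger protein, at 0.30 to 0.86 CPM in PEI-SWNTs leaves against 3.84 to 5.69 CPM in water leaves (-3.00). TINY2, an AP2-type transcription factor, was at 1.71 to 3.93 CPM in PEI-SWNTs leaves against 14.0 to 25.9 CPM in water leaves (-2.55). PLP9, a patatin-like lipase, and WAG1, a kinase that steers auxin transport, fell with -2.42 and -2.45, LAC5, a laccase, and AT1G68850, a peroxidase, with -2.46 and -2.54, and AT3G15310 and SOFL2 with -2.61 and -2.50. SOFL2 was at -3.21 without PEI-SWNTs 5. The exons of SOFL2 overlap the opposite strand over 23.0% of their length, and those of AT5G25260 over 20.1%. AT4G03875, AT4G09445 and AT5G01515 also fell, with at most 3 counts in any PEI-SWNTs library. The AT5G01515 call (-1.47, adjusted p = 0.035) was lost in 5 of the 10 fits with 1 sample left out (adjusted p 0.058 to 0.083) and with DESeq2 (adjusted p = 0.057), and AT4G09445 was at -2.75, and -3.45 without PEI-SWNTs 3.

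Promoter sequence was read for these genes because several of the lists moved together. The W-box, bound by WRKY transcription factors, was searched as TTGACC or TTGACT on both strands of the 250 bases before the annotated gene start. A match was present in 42.4% of 998 promoters of genes that rose and 23.1% of 566 of genes that fell, against 27.8% of all 16148 tested genes with such a window. Among the 14 pattern receptors 9 had one, and among the 10 tryptophan synthesis genes 6. The numbers were 2 of 8 salicylic acid genes, 1 of 13 NPR, NIMIN and TGA genes, 2 of 12 NLR genes and 2 of 16 endoplasmic reticulum chaperone genes. Promoters of key members with matches (FRK1 and EDS5) and without (NAI2, among the genes that fell) are shown, with W-box matches in capitals, 5′ to 3′ on the gene's strand, from the TAIR10.1 genome assembly: FRK1, minus strand, chr2:8329945-8330194. EDS5, plus strand, chr4:18185187-18185436. NAI2, minus strand, chr3:5402654-5402903.
FRK1: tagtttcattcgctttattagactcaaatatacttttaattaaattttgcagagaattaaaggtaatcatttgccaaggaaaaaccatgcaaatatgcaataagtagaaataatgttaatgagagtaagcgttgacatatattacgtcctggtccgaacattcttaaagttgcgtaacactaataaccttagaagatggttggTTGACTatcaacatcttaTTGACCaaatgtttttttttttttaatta
EDS5: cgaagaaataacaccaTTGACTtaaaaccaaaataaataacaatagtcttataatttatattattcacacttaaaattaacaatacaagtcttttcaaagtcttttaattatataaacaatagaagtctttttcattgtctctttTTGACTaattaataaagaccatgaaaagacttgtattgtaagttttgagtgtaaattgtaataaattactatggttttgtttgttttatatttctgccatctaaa
NAI2: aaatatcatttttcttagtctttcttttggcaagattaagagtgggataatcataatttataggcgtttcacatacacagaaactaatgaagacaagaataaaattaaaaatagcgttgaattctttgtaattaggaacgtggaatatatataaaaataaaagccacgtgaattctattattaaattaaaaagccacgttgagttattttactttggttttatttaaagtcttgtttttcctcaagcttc
FRK1 and EDS5 each held 2 matches, and in FRK1 both lay in the part of the window next to the gene start. The windows shown are examples and do not stand for the genes that rose or fell. ICS1, PBS3, PR1, PR2 and PAD3 rose and held no W-box match. AT3G06145 fell and held 2, and WAG1, LAC5 and PLP9 fell and held 1 each. The NAI2 window held a G-box (CACGTG), the element bound by bHLH and bZIP factors. Across genes the G-box was in 6.71% of promoters of genes that rose, 7.24% of those that fell and 7.59% of all tested, and in 7 of the 16 endoplasmic reticulum chaperone genes. The TGA factor core (TGACG) was in 22.4% of promoters of genes that rose, 18.7% of those that fell and 19.3% of all tested, and the evening element of clock-regulated genes (AAATATCT) in 7.62%, 6.71% and 5.00% of the same sets. These letter patterns do not contain one another. A match is a description of the sequence, not of binding, and a window without one says nothing of sites farther away.

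**Figure D5:**
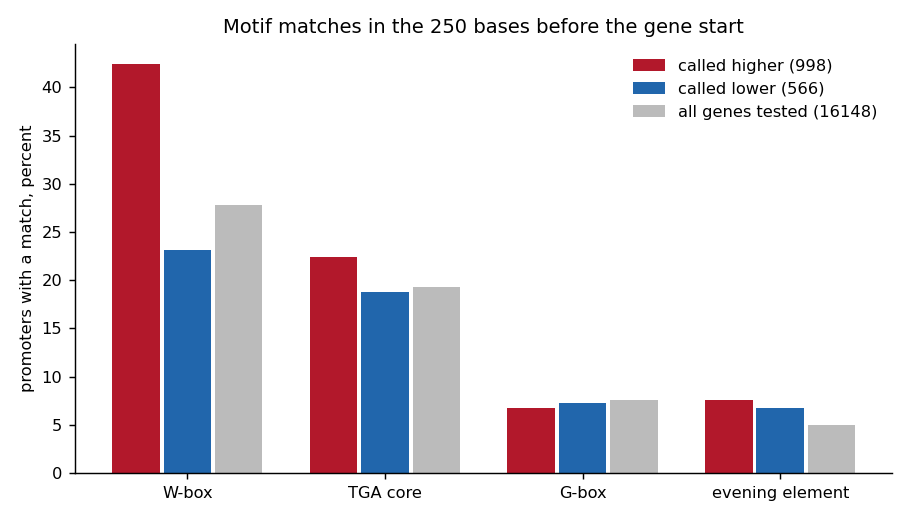
Share of promoters (vertical, percent, from 0) with at least 1 match to each of 4 motifs in the 250 bases before the gene start, for genes called higher (998), genes called lower (566) and all genes tested (16148). The W-box share is 42.4% among genes called higher, 23.1% among genes called lower and 27.8% among all genes tested. The other 3 motifs differ by fewer percentage points between the sets. The rarer evening element is at 7.62%, 6.71% and 5.00% in the same order.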

How the data were processed

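RNA sequencing of poly-A selected leaf RNA gave 20 libraries, 5 in each of 4 groups taken from the labels. The authors trimmed reads, aligned them with HISAT2 to TAIR10 and counted them per gene. The deposited table holds these raw counts for 37336 genes, and featureCounts 2.0.1 and edgeR 3.30.3 are named in the submitters' processing notes. Whether counting used strand or reads that align to several places is not given in the sources used here. A second deposited table gave gene lengths only, since its other columns hold the authors' own fold changes and p-values, which were not used.

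The counts were fitted with edgeR 4.0.16 (quasi-likelihood test, 4 group means over all 20 samples, TMM factors) in R 4.3.3. Genes averaging at least 1 RPKM were tested, and lengths were from the authors' table or the exon union of the annotation (146 genes had none). P-values were adjusted by Benjamini-Hochberg over 16288 genes, and genes past 2-fold with an adjusted p below 0.05 were called. CPM values use TMM-scaled library sizes. Samples of the same group differed by more than sampling noise in all 20 pairs examined, and replicates pooled leaves of several plants, so p-values measure the spread between such pools. Organelle shares were compared with a two-sided exact permutation test in scipy 1.17.1, and figures were drawn with matplotlib 3.10.9. The scripts were tested on simulated data.

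The 36 gene lists (513 of 534 listed genes matched) and the genes named were chosen with earlier results of these data known. Named genes were chosen members of each list, the largest called rise and fall of each list, the 10 largest rises and 10 largest falls whose groups did not overlap and whose lower group averaged at least 10 counts a library, and up to 3 genes with at most 3 counts in every library of 1 group. Other genes in the text illustrate their list and were picked after their values were seen. Promoters are the 250 bases before the gene start in TAIR10.1 (RefSeq). Alternatives were DESeq2 1.42.0, other scalings, gene filters and thresholds, a replicate block, thinned counts, a GC and length offset, and each sample left out. Some items are not reported here.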

Additional observations from a re-analysis of the deposited data

Results flagged for a closer look

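Among 220 groups of 5 samples screened for named genes, 13 held 1 sample set far from the other 4 by Dixon's criterion, which chance meets in about 1 in 20 groups. PEI-SWNTs 5 accounted for 6 of them. Its VSP2 level was 40.0 CPM (other PEI-SWNTs samples 1.37 to 8.32 CPM), BGLU18 72.8 CPM (10.4 to 16.1), RBCS1A 9240 CPM (6201 to 7006), SOFL2 1.55 CPM (0.298 to 0.535) and PLP9 6.50 CPM (3.30 to 3.80), while AGO2 was low, at 33.2 CPM (41.8 to 44.9). GI in PEI-SWNTs 1 was 105 CPM (85.3 to 88.7).

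Among water samples, water 3 was high for VSP2 at 119 CPM (other water samples 0.697 to 18.8 CPM) and for CORI3 at 77.4 CPM (35.4 to 45.4). Water 1 was high for CER1 at 79.1 CPM (32.5 to 42.4) and for CWINV6 at 0.498 CPM (0.0537 to 0.18). MPK11 in water 4 was 10.6 CPM (2.16 to 3.59), and SMR7 in water 2 was 0.805 CPM (0.245 to 0.407). What sets these samples apart was not tested.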

How the results depend on the processing

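The count of genes higher with PEI-SWNTs, 999, became 1941 at a fold change of at least 1.5, 4505 with no fold minimum and 474 when glmTreat tested for a change larger than 2-fold. The count of genes lower, 566, became 1552, 3953 and 122 under the same settings, and 972 when every gene with at least 1 count was tested, which adds genes. Under the other settings the counts were 956 to 1455 higher and 509 to 780 lower, with DESeq2 at 988 and 593. With 1 sample left out they ranged over 919 to 1036 higher and 541 to 759 lower, the last without PEI-SWNTs 5. The plastid share difference ranged from -1.11 to -0.79 percentage points and the mitochondrial difference from 0.38 to 0.51. Same-numbered samples did not deviate together (correlations of PEI-SWNTs and water deviations -0.36 to 0.06), and with a replicate block 1000 genes were higher and 565 lower. Over all settings, named genes gave 2215 values on the same side of an adjusted p of 0.05 as the main value, 67 that lost it, 37 of these under glmTreat, and 9 that gained it. The 2-fold minimum was not part of that count. With it, calls were lost when 1 sample was left out for NPR1 in 6 fits, IGMT5 and AT5G01515 in 5, ASA1, NBR1 and SPX1 in 4, COR15A in 2 and CYP83A1 and KCS1 in 1, and gained for BZIP60 in 3 and VSP2 in 1. Leaving out organelle rRNA genes was not run. Genes averaging below 1 RPKM were not tested, so low genes such as SMR7 and ALD1 have no call. That average included the PEI-SWNTs samples, so genes detected mainly in them could pass through that group.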

Other observations

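Genes that lie under a gene on the other strand were often without counts. Of 522 protein-coding genes with more than 90% of their exon length overlapped in this way, 86.0% held 0 counts in all 20 libraries, against 18.4% of 20771 genes with no such overlap, 5.06% of 5632 overlapped by up to 50% and 27.7% of 519 overlapped by 50% to 90%. Listed genes among the heavily overlapped ones were MYC2, GSTF11, CYP81F1, LHCB1.5 and SMR5, each with 0 counts, and RPS2 with 26 and F3H with 7 counts over all libraries. The cause was not tested.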
